A study of Mus musculus with 7 samples.

Results

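Fibroblast growth factors (Fgf), Wnt proteins and bone morphogenetic proteins (Bmp) are the signals by which embryonic tissues pattern one another, and the genes that encode them were placed here against the lamin-associated domains (LADs) of mouse embryonic fibroblasts. The 52 genes were taken by symbol from the protein-coding genes of the RefSeq table of GRCm38.p6 (mm10), as Fgf, Wnt or Bmp followed by digits and at most one final a or b, and are 52 of 21887 placed protein-coding genes. They comprised 22 Fgf, 19 Wnt and 11 Bmp genes. Receptors, binding proteins and opposite-strand genes were not included. The choice by symbol takes in 5 genes that are not ligands of these receptors, namely Fgf11, Fgf12, Fgf13 and Fgf14, whose proteins stay inside the cell, and Bmp1, a secreted protease.

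The series profiled fibroblast lines, called iMEF in the labels, that were derived independently from a single mouse colony. In CUT&RUN an antibody on chromatin directs a nuclease that cuts out the bound DNA. There were 7 libraries: 2 of Lamin B1 and 2 of IgG on whole cells, and on nuclei 1 of H3K14ac and 2 of H3K9me2, which differed in the antibody. Placement used the authors' merged list of 1437 LADs, which is wild type by its name and holds positions only, so no value below has a replicate error, no depth is known and nothing was tested over samples. No expression was measured in these files, and the cell type could therefore not be checked against marker levels.

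LADs are long stretches of chromatin at the protein layer under the nuclear envelope, and genes inside them are mostly silent in the cell type studied. Fgf ligands act on receptor tyrosine kinases, Wnt proteins on Frizzled receptors with Lrp co-receptors, and Bmp ligands on pairs of serine/threonine kinase receptors that activate Smad proteins. In fibroblasts and other mesenchyme most of these ligands act at short range, and many are made only at certain places and times in the embryo.

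A gene was counted as in a LAD when the midpoint of its body lay in a domain. By this measure 6 of the 52 genes (11.5%) were in LADs, namely Fgf10, Fgf12, Fgf13, Fgf14, Bmp2 and Bmp5. Over all placed protein-coding genes the share was 23.8% (5207 of 21887), and it was 19.1% without the olfactory (Olfr) and vomeronasal (Vmn) receptor genes. Fgf3, Fgf4 and Fgf15 lie beyond the last LAD of chromosome 7, and within the spans from the first to the last LAD of each chromosome the shares were 12.2% of 49 members and 24.6% of all genes. Of the Fgf genes 4 of 22 (18.2%) were in LADs, of the Wnt genes 0 of 19, and of the Bmp genes 2 of 11 (18.2%). Among the 47 members that encode secreted ligands, 3 were in LADs (6.38%). The other 46 genes of the 52 were touched by no LAD at any base. Members are not independent placements, since several lie side by side: the 52 genes occupied 41 intervals, of which 6 were LADs, 34 were gaps between LADs and 1 was the end of chromosome 7.

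**Figure D1:**
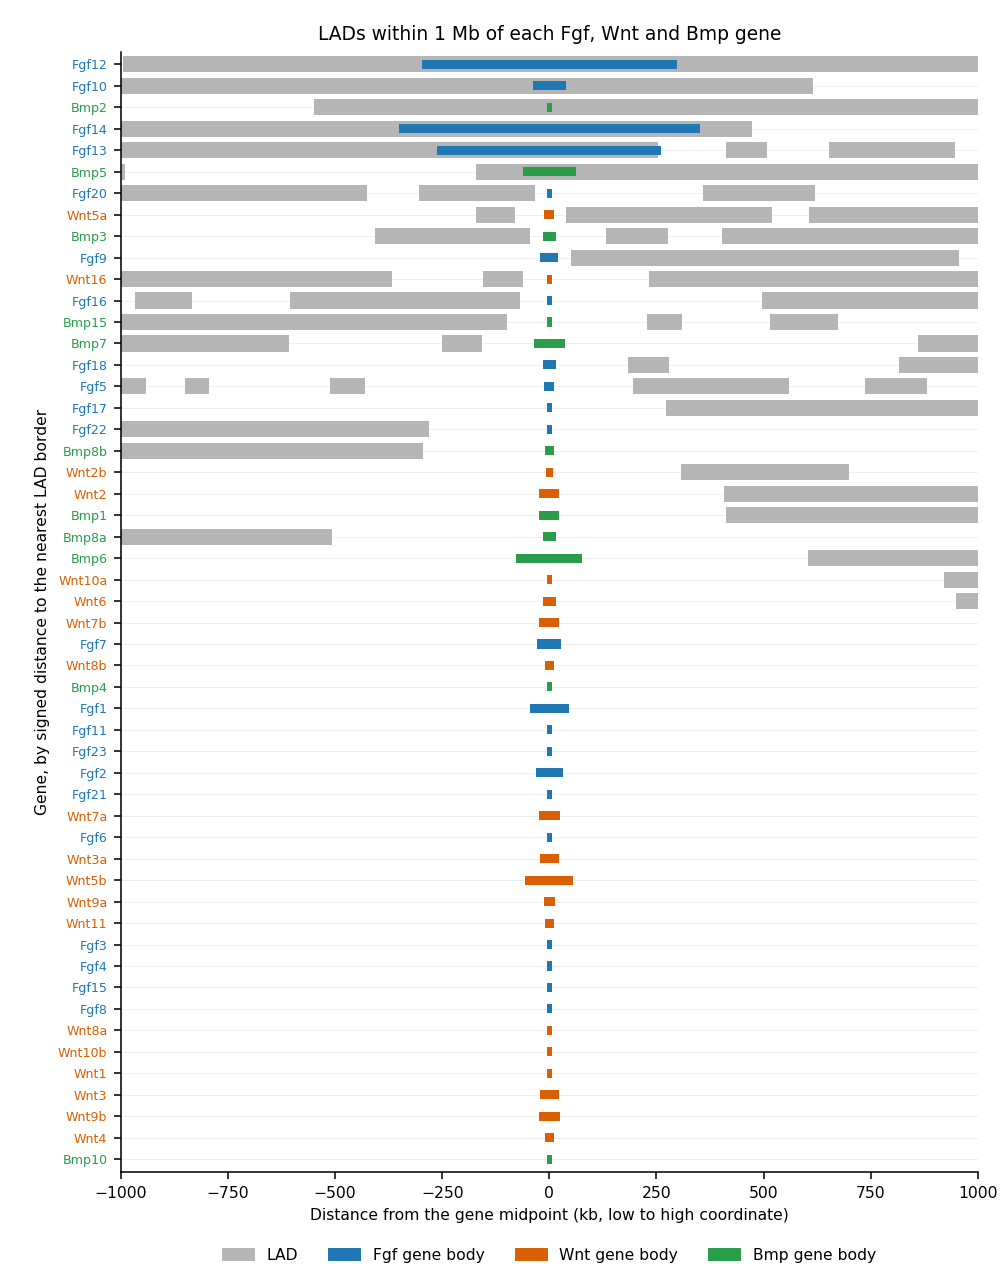
Domains around each of the 52 genes. Rows are genes, ordered by signed distance of the midpoint to the nearest LAD border, the horizontal axis is the distance from the gene midpoint in kb, grey bars are LADs and coloured bars are gene bodies (bodies under 12 kb are drawn 12 kb wide). The top 6 rows lie in grey, and 30 rows have no LAD within 500 kb.

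Fgf10 and Bmp5 were secreted ligand genes that lay whole in a LAD, as did Bmp2, described below. Fgf10, which drives the outgrowth of limb and lung buds, lies on chromosome 13 (118714699 to 118792573) in a LAD of 2315 kb (117052972 to 119367963), with its midpoint 614.3 kb from the nearer border. That domain held 4 protein-coding genes, among them Emb and Mrps30, and within 500 kb of the midpoint all bases (100%) were in LADs. Bmp5, a skeletal growth factor, lies on chromosome 9 (75775365 to 75900316) in a LAD of 1877 kb (75666346 to 77543839) and was the shallowest of the 6, at 171.5 kb from a border. Its start was nearer to it, at -109.0 kb on a scale that is negative inside LADs. Its domain held 8 protein-coding genes, among them Gfral and Hcrtr2, and LADs took up 67.1% of the bases within 500 kb. The 250 bases before the annotated start of each gene (RefSeq promoters, GRCm38.p6) are shown because the domain covers the start itself, with CpG dinucleotides in capitals. In Fgf10 (chr13:118714449-118714698, plus strand) these bases hold 8 CpG, and in Bmp5 (chr9:75775115-75775364, plus strand) 4.
Fgf10: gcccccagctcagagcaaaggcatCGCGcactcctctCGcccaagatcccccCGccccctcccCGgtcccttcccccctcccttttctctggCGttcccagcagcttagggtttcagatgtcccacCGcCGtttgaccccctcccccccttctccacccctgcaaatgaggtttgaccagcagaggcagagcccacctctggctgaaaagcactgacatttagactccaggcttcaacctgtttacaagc
Bmp5: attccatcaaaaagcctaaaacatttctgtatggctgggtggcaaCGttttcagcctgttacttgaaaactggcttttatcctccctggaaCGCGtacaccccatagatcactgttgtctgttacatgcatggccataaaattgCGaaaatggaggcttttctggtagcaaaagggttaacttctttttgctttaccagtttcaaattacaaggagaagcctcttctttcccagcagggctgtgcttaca

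Bmp2, which acts in heart and bone formation, lies on chromosome 2 (133552159 to 133562896) in the longest LAD with a member, of 4010.0 kb (133006990 to 137016977). Its midpoint was 550.5 kb from the border, and no other protein-coding gene had its midpoint within 500 kb. The 12 genes of this domain included Plcb1, Plcb4, Snap25 and Lamp5. On its low-coordinate side the domain meets a gap of 7967 kb that holds 126 protein-coding genes, one of them Fgf7. Relatives of these ligands lay outside LADs. Fgf7, which like Fgf10 signals through the epithelial form of Fgfr2, was 1023 kb from a border. Bmp4, the paralog of Bmp2, was 1238 kb outside on chromosome 14 (46383525 to 46390669). Bmp6 and Bmp7, of the same subgroup as Bmp5, were outside by 602.7 and 157.3 kb. Being outside is the common placement, with 46 of the 52 members there.

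The intracellular Fgf genes had 3 of 4 members in LADs, against 23.8% of all protein-coding genes and 73.6% of those of at least 500 kb. The intracellular Fgf proteins bind voltage-gated sodium channels in neurons and heart muscle and are not secreted like the other Fgf proteins. Fgf12 spans 595.5 kb of chromosome 16 (28157783 to 28753243) in a LAD of 2070.0 kb (27459581 to 29529573), and its midpoint was 995.9 kb from a border, deeper than the other 5. Fgf14 spans 703.2 kb of chromosome 14 (123974441 to 124677686) and lay whole in the last LAD of that chromosome, of 1865 kb (122933433 to 124798426), at a depth of 472.4 kb. Its domain also held Nalcn, a cation channel gene, Tmtc4 and Itgbl1. Fgf13 spans 523.4 kb of the X chromosome (59062139 to 59585572), and 98.3% of it lay in a LAD of 1457 kb (58119147 to 59576641), at a midpoint depth of 252.8 kb. With LADs joined across gaps of at most 250 kb its distance was -1865 kb (negative inside). Fgf11 is the short gene of the group, 6.88 kb on chromosome 11 (69796068 to 69802944). It lay 1301 kb outside LADs, in a gap of 3802 kb with 133 protein-coding genes. Neighbour counts differed too: 63 other protein-coding genes had their midpoint within 500 kb of Fgf11, against 1 for Fgf12, 1 for Fgf13 and 0 for Fgf14. The bodies of Fgf12, Fgf13 and Fgf14 themselves fill much of that window, which limits this comparison.

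Fgf13 was the single member crossed by a LAD border. The gene is on the minus strand, and the border fell between the first and the second of its 4 listed starts. Start 1 lay 8.93 kb outside the domain. On the same scale, where negative distances are inside, start 2 was at -9.29 kb and starts 3 and 4 were at -410.6 and -442.2 kb. LAD lengths came in steps of 2.5 kb (100% of them, to a tolerance of 125 bp), but how accurate a border is was not measured, and a shift of 50 kb, as in the extended or trimmed LADs, is larger than the distance of start 1 or start 2. The bases before start 1 and start 2 are shown with those of Fgf12, Fgf14 and Fgf11, since they carry the contrast within this group, again with CpG in capitals. The run before start 1 of Fgf13 (chrX:59585573-59585822) has 2 CpG and the run before start 2 (chrX:59567349-59567598) has 33. For Fgf12 (chr16:28753244-28753493) the count is 18, for the listed start of Fgf14 (chr14:124192547-124192796) it is 7 and for Fgf11 (chr11:69802281-69802530) it is 5. The 5 runs are minus strand, printed 5′ to 3′. The listed start of Fgf14 lies 485.1 kb inside the gene body.
Fgf13 start 1, outside the LAD: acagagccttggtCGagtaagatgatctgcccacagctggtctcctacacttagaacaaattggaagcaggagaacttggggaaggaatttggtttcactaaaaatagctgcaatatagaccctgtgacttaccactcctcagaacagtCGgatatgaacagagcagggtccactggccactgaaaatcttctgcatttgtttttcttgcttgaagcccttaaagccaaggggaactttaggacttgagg
Fgf13 start 2, in the LAD: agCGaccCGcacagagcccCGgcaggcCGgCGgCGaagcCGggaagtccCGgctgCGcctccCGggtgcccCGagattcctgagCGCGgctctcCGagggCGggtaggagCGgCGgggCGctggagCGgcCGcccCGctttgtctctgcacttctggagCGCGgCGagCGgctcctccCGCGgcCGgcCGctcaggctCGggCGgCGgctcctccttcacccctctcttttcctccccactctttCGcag
Fgf12 start 1, in the LAD: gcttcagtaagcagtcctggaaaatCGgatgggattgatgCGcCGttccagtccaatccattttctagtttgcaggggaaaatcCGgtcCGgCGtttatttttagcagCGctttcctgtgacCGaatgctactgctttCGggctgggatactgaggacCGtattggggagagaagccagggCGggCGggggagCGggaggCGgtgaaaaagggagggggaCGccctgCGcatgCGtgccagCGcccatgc
Fgf14, in the LAD: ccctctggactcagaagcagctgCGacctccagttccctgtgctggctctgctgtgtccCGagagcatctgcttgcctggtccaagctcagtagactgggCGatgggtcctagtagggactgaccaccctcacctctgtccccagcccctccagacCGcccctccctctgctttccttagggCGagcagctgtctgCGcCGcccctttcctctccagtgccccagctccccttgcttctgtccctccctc
Fgf11, outside LADs: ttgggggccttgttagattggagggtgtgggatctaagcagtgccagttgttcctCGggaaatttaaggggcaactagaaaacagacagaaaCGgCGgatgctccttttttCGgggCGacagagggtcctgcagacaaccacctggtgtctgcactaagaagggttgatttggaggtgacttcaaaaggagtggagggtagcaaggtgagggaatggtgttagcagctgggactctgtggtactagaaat

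Gene length went along with placement. The 3 members of at least 500 kb (Fgf12, Fgf13 and Fgf14) were all in LADs, and so were 73.6% of the 227 protein-coding genes of that length, so the share in these 3 is a common one for genes of this size. Of the 17 members under 10 kb none was in a LAD, where all genes of that length gave 32.6% and those without Olfr and Vmn genes 21.3%. Between 10 and 50 kb it was 1 of 24 members (Bmp2), or 4.17%, against 15.6% of all genes. The remaining classes held 1 of 5 members from 50 to 100 kb (Fgf10) and 1 of 3 from 100 to 500 kb (Bmp5), against 15.8% and 29.7% of all genes. Whether length accounts for the placement of any member was not tested.

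**Figure D2:**
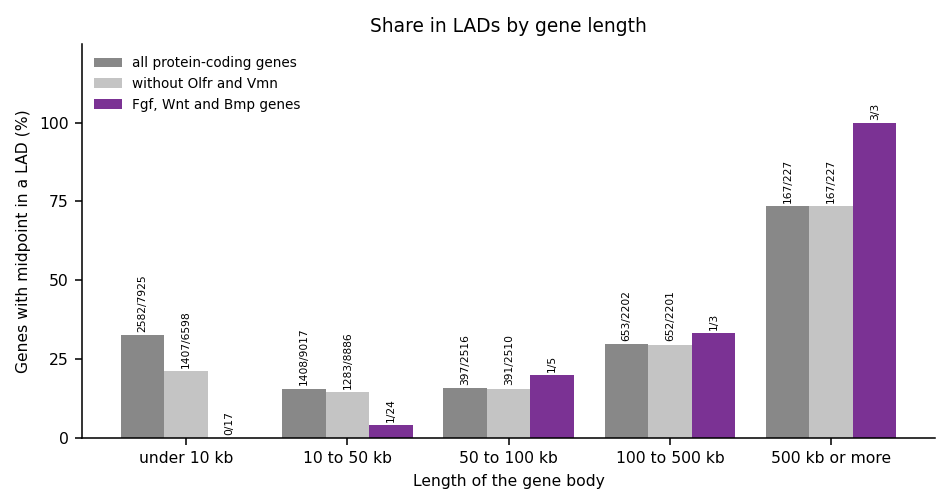
Share of genes with the midpoint in a LAD, in percent, by length of the gene body. Bars are all protein-coding genes, the same without Olfr and Vmn genes, and the 52 Fgf, Wnt and Bmp genes, with the number in LADs over the number in the class above each bar. Members are at 0 of 17 under 10 kb and 3 of 3 from 500 kb.

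The LADs that hold members had few other genes close to the member. Their lengths ran from 1457 to 4010.0 kb with a median of 1974 kb, and over all genes in LADs the median domain measured 1785 kb. The median member was 511.5 kb from the border, against 307.7 kb for all genes in LADs and 247.5 kb without Olfr and Vmn genes. The median body of these 6 members was 324.2 kb, against 10.2 kb for all genes in LADs. A long body that lies whole in a LAD keeps its midpoint far from both borders, and the share of length in this depth was not tested. Gene density in the 6 domains was 1.37 genes per Mb for that of Fgf13, 1.73 for Fgf10, 2.15 for Fgf14, 2.42 for Fgf12, 2.99 for Bmp2 and 4.26 for Bmp5. A median of 1 other gene (0 to 11, the highest for Bmp5) lay within 500 kb of these 6 members, against 12 for all genes in LADs and 8 without Olfr and Vmn genes. The long bodies of Fgf12, Fgf13 and Fgf14 themselves fill much of this window. For the 46 members outside LADs the median was 12, and for all genes outside LADs it was 16.

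Secreted Fgf genes outside LADs fell into a group near borders and a group far from them. Fgf20, which acts in the inner ear and kidney, was the nearest of all members at 32.5 kb, in a gap of 390.0 kb on chromosome 8 with 6 protein-coding genes. Fgf9, needed for lung and testis development, was 49.4 kb from a LAD of 907.5 kb on its high-coordinate side and 4593 kb from the next on the other. Fgf16, of the same subfamily, was 69.0 kb from a border on X, in a gap of 565.0 kb with Atrx, Atp7a and Pgk1 among its 9 genes. These 3 genes form the Fgf9 subfamily, and 12.3% of all outside genes lay as close, within 100 kb of a LAD. Fgf18, Fgf5, Fgf17 and Fgf22 followed at 183.4, 196.4, 271.9 and 280.6 kb. Short domains set some of these distances: with LADs of at least 100 kb Fgf18 was at 815.9 kb, and with LADs of at least 500 kb Fgf5 was at 1006 kb and Fgf20 at 425.0 kb. With LADs extended by 50 kb, Fgf20 (-17.5 kb) and Fgf9 (-0.624 kb) came inside. The others among the paracrine genes were over 1 Mb away, from Fgf7 at 1023 kb to Fgf8, the organizer signal of limb bud and midbrain, at 2259 kb.

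The endocrine Fgf genes, which circulate as hormones, were each more than 1 Mb from a LAD, as were 43.3% of all outside genes. Fgf21, a metabolic hormone, was 1565 kb from a border in a gap of 3927 kb with 176 protein-coding genes, and 60 other genes lay within 500 kb of it. Fgf23, which controls phosphate, was at 1527 kb, 48.2 kb from its neighbour Fgf6, a muscle Fgf at 1584 kb. Fgf15, the ileal signal that limits bile acid synthesis, lies in a row with Fgf4 and Fgf3 at the end of chromosome 7. Those 3 were 2049, 2014 and 1991 kb past the last LAD, which ends at 142849674. That LAD measured 52.5 kb, and with LADs of at least 100 kb the distances were 4094, 4059 and 4036 kb. They share a single stretch and count as 1 placement.

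No Wnt gene had its midpoint in a LAD or was touched by one, and 2 of the 19 (10.5%) lay within 100 kb of a border, against 12.3% of all outside genes. Wnt5a, which directs outgrowth and cell polarity and is made by mesenchyme, is on chromosome 14 (28504543 to 28527448) in a gap of 117.5 kb (28436232 to 28553730). It was the one protein-coding gene of that gap, 79.8 kb from a LAD of 92.5 kb on one side and 37.7 kb from a LAD of 482.5 kb on the other. LADs took up 55.5% of the bases within 500 kb of it. Wnt16, a bone and joint Wnt on chromosome 6 (22288178 to 22298522), shared a gap of 295.0 kb with Fam3c and was 61.3 kb from the nearer border. Its flanking LADs measured 92.5 and 1997 kb. Counting LADs of at least 500 kb alone put Wnt5a at 605.2 kb and Wnt16 at 233.7 kb. Wnt5a came inside with LADs joined across gaps of at most 250 kb (-172.3 kb) or extended by 50 kb (-12.3 kb).

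The other 17 Wnt genes were at 307.5 kb or more. Wnt2b and Wnt2 were at 307.5 and 408.0 kb, though Wnt2b was at 1045 kb and Wnt8b at 3495 kb in place of 1125 kb from LADs of at least 500 kb. In all, 13 of the 19 were more than 1 Mb from a border (68.4%), where 43.3% of all outside genes were. The median of the 19 was 1846 kb, against 796.3 kb for all outside genes. Farthest were Wnt4, a kidney and ovary signal, at 4882 kb on chromosome 4, and Wnt9b and Wnt3 at 4719 and 4674 kb in a gap of 14640.0 kb on chromosome 11 with 392 genes. Wnt genes stand in old pairs, and 4 such pairs lay within 100 kb of each other: Wnt6 with Wnt10a, Wnt3a with Wnt9a, Wnt9b with Wnt3, and Wnt10b with Wnt1. In each pair both genes were in the same gap, so the 19 genes filled 15 intervals. Wnt10a and Wnt6 were at 921.7 and 949.9 kb and Wnt3a and Wnt9a at 1846 and 1897 kb. Wnt10b and Wnt1, the latter a midbrain organizer signal, were at 2534 and 2551 kb.

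Bmp genes outside LADs were the closest to borders by the median, 413.5 kb over 9 genes. Bmp3, a bone matrix protein that opposes other Bmp ligands, was 44.7 kb from a border in a gap of 177.5 kb on chromosome 5 (98824500 to 99001998) that it shared with Prkg2. A LAD of 362.5 kb separated it from Fgf5, which lies in the next gap, 577.4 kb away from end to end. Bmp15, the oocyte factor, was 98.1 kb from a border on X in a gap of 325.0 kb with Shroom4. Counting LADs of at least 500 kb alone put Bmp3 at 402.8 kb. It came inside with LADs joined across gaps of at most 250 kb (-407.2 kb) or extended by 50 kb (-5.26 kb). Bmp7 was at 157.3 kb from a LAD of 92.5 kb and at 607.3 kb from LADs of at least 100 kb. Bmp8b and Bmp8a were at 294.7 and 507.4 kb in the same gap, and Bmp6 at 602.7 kb. Bmp1, the protease that trims procollagen, was at 413.5 kb in a gap with Fgf17. Bmp10, a heart ligand, was the farthest of the 52 genes, at 4902 kb, in a gap of 10425 kb that also held Wnt7a.

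**Figure D3:**
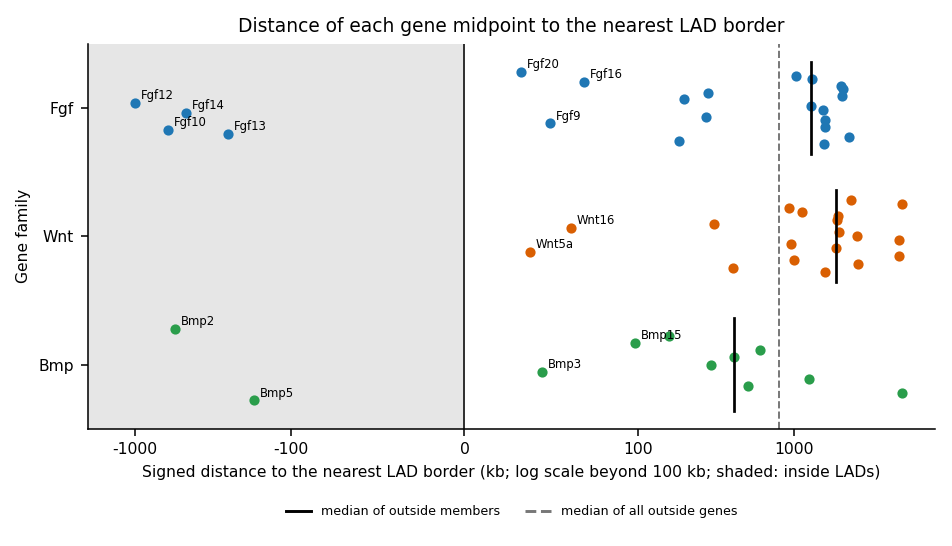
Signed distance of each gene midpoint to the nearest LAD border in kb, by family, on an axis that is linear to 100 kb and logarithmic beyond. Points are genes, negative values in the shaded part are inside LADs, black bars are the medians of outside members (1291 kb for Fgf, 1846 kb for Wnt, 413.5 kb for Bmp), and the dashed line is the median of all outside genes (796.3 kb).

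Of the 46 outside members, more were far from LADs than close to them. Within 100 kb of a border were 7 of them (15.2%), against 12.3% of 16680 outside genes. More than 1 Mb away were 26 (56.5%), against 43.3%. In gaps of at most 250 kb were 2, Wnt5a and Bmp3 (4.35%), against 4.63%. The median distance was 1182 kb. Of all 52 members, 30 (57.7%) had no LAD base within 500 kb of the midpoint, against 47.2% of all genes.

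The genes through which these ligands act were placed in the same way, from lists of receptors, modulators and transducers. All 125 listed symbols were found. Of the 7 Fgf receptors and co-receptors and the 14 Fgf regulators, 0 were in LADs. The Wnt receptor and secretion list had 4 of 20 in LADs: the receptors Fzd10, Ror1 and Lgr5, and Wls, which carries Wnt proteins out of the cell. A border crossed Wls, with 54.0% of its body inside, and Ror1, with 99.5% inside. Of the 16 secreted Wnt modulators 2 were inside, the inhibitor Dkk1 and the agonist Rspo3, and of 13 Wnt transducers 0. For Bmp signalling the counts were 1 of 7 receptors (Bmpr1b), 2 of 12 secreted modulators, among them the antagonist Nog, and 0 of 10 transducers. Together 9 of 99 such genes (9.09%) were in LADs, with 6 of the 52 ligand-named genes (11.5%) and 23.8% of all genes beside them. Of 23 other ligands of the Tgf-beta family 3 were inside (Gdf6, Mstn and Tgfb2), and of the 3 hedgehog ligands 0. Tgfb2 was crossed by a border, with 73.8% of its body inside.

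Some depths are given, again as negative distances to the border. Wls, at -3.95 kb, was next to one. Fzd10, Dkk1 and Bmpr1b were at -311.8, -294.2 and -219.8 kb. Nog and Rspo3 were at -63.7 and -61.5 kb, and the LAD with Rspo3 measured 152.5 kb. Counts by list were small, and no list was tested against another.

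**Figure D4:**
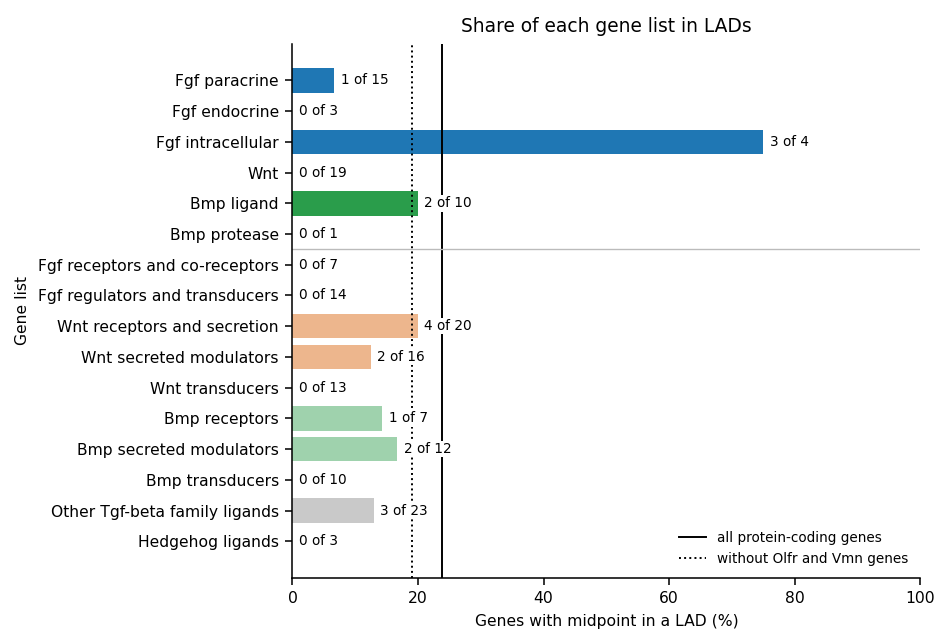
Share of each gene list with the midpoint in a LAD, in percent, with counts beside the bars. Full colours are the 52 genes by role and pale colours the related lists, the solid line is all protein-coding genes (23.8%) and the dotted line the same without Olfr and Vmn genes (19.1%). The intracellular Fgf genes, 3 of 4, are the one list above both lines.

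Sequence around the gene starts was examined where the RefSeq promoter table had an entry, which it did for 38 of the 52 genes and not for Bmp1, Bmp2, Bmp3, Bmp7, Fgf1, Fgf8, Fgf15, Fgf16, Fgf17, Fgf20, Wnt5a, Wnt7b, Wnt8a and Wnt10a. Each entry covers 250 bases before and 50 after the start, and the outermost listed start stood for a gene. By start, 4 of these 38 members (10.5%) were in LADs, against 23.9% of 17492 genes with an entry. Fgf13 moved out by this measure. Starts in LADs had a median of 2 CpG per 300 bases over all genes and 4 without Olfr and Vmn genes, and starts outside had 17. The 4 members with the start in a LAD had 18 (Fgf12), 12 (Fgf14), 10 (Fgf10) and 4 (Bmp5). The third quartile of LAD starts was 7 over all genes, with 3 of the 4 members above it, and 11 without Olfr and Vmn genes, with Fgf12 and Fgf14 above it.

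Of the families, Wnt starts were the richest in CpG, with a median of 31 over 15 genes and a range from 6 for Wnt8b to 58 for Wnt9a. The 13 Fgf starts outside LADs had a median of 12 and a range from 3 for Fgf13 to 47 for Fgf18. The 6 Bmp starts outside had a median of 13.5, from 2 for Bmp15 to 27 for Bmp6. Alternative starts of a gene also differed. In Fgf13, starts 2 and 4 had 40 and 37 CpG and starts 1 and 3 had 3 and 6, so that both CpG-rich starts of this gene lay inside the LAD. In Fgf12 all 4 starts were inside, with 18, 34, 29 and 22 CpG.

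**Figure D5:**
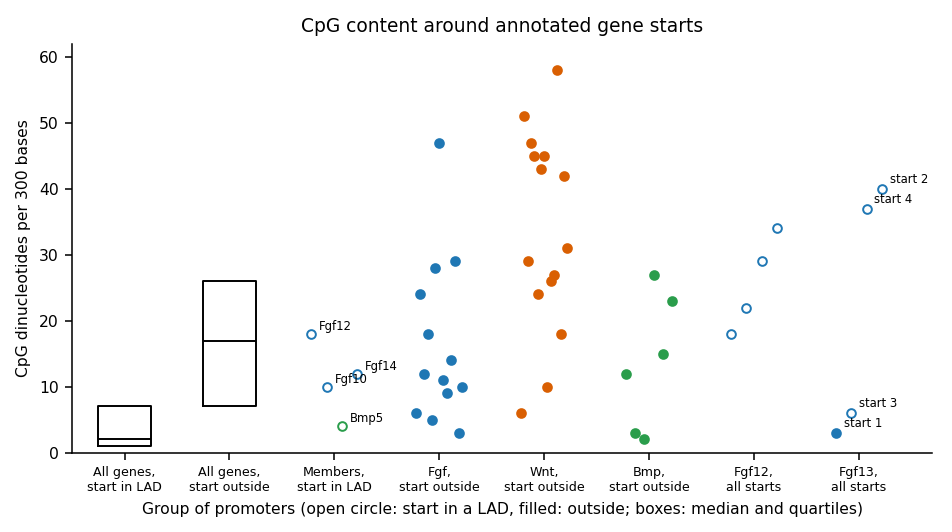
CpG dinucleotides in the 300 bases around annotated starts. Boxes give the median and quartiles of all protein-coding genes, points are members (open when the start is in a LAD, filled when outside), and the last 2 groups show each listed start of Fgf12 and Fgf13. Wnt starts have a median of 31 and the open Fgf13 starts 2 and 4 stand at 40 and 37.

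Motifs were searched on both strands of the same windows. GGGCGG, the core of the GC box bound by Sp1, was in 26 of 38 member windows (68.4%), in 12 of the 15 Wnt windows and in 46.3% of all windows. For starts outside LADs the shares were 67.6% of 34 members and 55.1% of all. TATAAA, the TATA box core, was in 4 member windows (10.5%), those of Fgf5, Fgf21, Wnt11 and Bmp15, and in 13.3% of all. All 4 starts are outside LADs, where 11.8% of member windows and 9.51% of all windows held it. Neither motif is part of the other. GGGCGG holds a CpG, and the median G+C share was 64.7% in member windows against 56.3% in all windows. Its counts and the CpG counts are therefore not separate results. Among members with the start in a LAD, GGGCGG was in the windows of Fgf10, Fgf12 and Fgf14 and not in that of Bmp5, whereas 18.3% of all windows in LADs held it, and 25% without Olfr and Vmn genes. These matches are descriptions of letters, and binding was not measured.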

How the data were processed

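The authors deposited 1 list of LADs in BED format. Its values are start and end positions in base pairs on mm10, and the score column holds 0 in all 1437 lines. Per the submitters' processing notes, reads were aligned with Bowtie2 to mm10. The Bowtie2 version, the domain caller, its threshold and the use of IgG or spike-in DNA are not given in the sources used here. The list is called merged and wild type in its name alone, and which libraries were merged is not stated there. Per the labels' protocols, each reaction took 500000 cells. Profiles of single libraries, H3K9me2, H3K14ac and IgG were not analysed here, and the depth is unknown.

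Positions were counted from 1. Genes, bodies and symbols came from the RefSeq table of GRCm38.p6, and starts from its promoter table. Midpoints were placed in domains, distances run to the nearest border, and windows reach 500 kb to each side (Python 3.11.15, pandas 2.3.3). Placement was tested on 2000 simulated points. The values are descriptions with all protein-coding genes beside them, and no test was run. Alternatives were minimum LAD lengths, joined, extended or trimmed LADs, other points of the gene, other windows, and leaving out genes that are not ligands.

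The members and lists were chosen with earlier results of these data known. Genes described singly were every member in a LAD, the 5 nearest and 5 farthest outside, members at most 100 kb from another, and listed pathway genes in LADs, except an item not reported here. Further members were given by role.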

Additional observations from a re-analysis of the deposited data

How the results depend on the processing

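The list holds 1 merged set, so leaving out a Lamin B1 replicate was not possible. No paired analysis was possible because the list carries no values per replicate. The 6 of 52 members in LADs became 5 (whole gene in a LAD) to 8 (LADs joined) under most other settings of domains and gene points, where 20.6% to 27.3% of all genes were inside, 4 of 38 by the gene start (23.9% of all genes), and 10 with LADs extended by 50 kb, where Bmp3 (-5.26 kb), Fgf20 (-17.5 kb), Fgf9 (-0.624 kb) and Wnt5a (-12.3 kb) came inside and the share of all genes rose to 28.4%. Leaving out Fgf11 to Fgf14 and Bmp1 gave 3 of 47. The Wnt count of 0 became 1 with that extension and 1 with LADs joined across gaps of at most 250 kb, which put Wnt5a (-172.3 kb) and Bmp3 (-407.2 kb) inside. By the gene start, Fgf13 was 8.93 kb outside, 1 Bmp gene of 7 with an entry was inside in place of 2 of 11, and the related lists had 6 of 85 in place of 12 of 125. That setting changes both the point placed and the genes counted. Bmp2 has no entry and left the count, and Bmp5 stayed inside by its start, at -109.0 kb. For the related lists, which of these changes lowered the count was not tested. Of 58 alternatives for the summary values 52 met the limit set for the kind of value. Counts had to stay within 1.5 times. The median CpG (22 over all listed starts in place of 18) had to stay within an interval of the median. So had median distances, within 413.5 to 1584 kb, and median LAD shares around the gene, within 0 to 9.50%. Such intervals treat the genes as independent. The last 2 are wide and also hold the values over all genes, 796.3 kb for outside genes and a share of 6.57%. Falling within them does not show that a median stayed close. Of 298 for single members 256 stayed within 1.5 times, 35 moved and 7 changed side. The moves were mostly under minimum LAD lengths or borders shifted by 50 kb. Negative values are distances inside a LAD. Using all listed starts was added after seeing the data. The accuracy of borders was not measured, and how depth affects short domains and gaps was not tested.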
